A study of Rattus norvegicus with 10 samples.

Results

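The calcium cycle of the heart muscle cell was followed through 10 transcripts of the fetal rat heart, which were Cacna1c for calcium entry, Ryr2, Casq2, Trdn, Jph2 and Dhrs7c for the store and its release, Atp2a2, Pln and Sln for uptake, and Slc8a1 for extrusion. They were found by symbol among the 18025 genes listed, and 10 of 10 were present. The genes were chosen by their place in calcium cycling with the difference between the groups below already known, so the differences of these 10 genes are a description. Where a threshold is given for them, it describes the values on which they were chosen and is not a test of the groups. Hearts were taken at embryonic day 19.5 from wild-type Sprague-Dawley fetuses, with 5 libraries of a control (CON) group and 5 of a hyperglycemia (HG) group. Dams of both groups were 3 months old and carried pregnancies by normoglycemic males. HG dams had been injected with streptozotocin (STZ), which kills the insulin-producing cells of the pancreas, intraperitoneally once a day on 3 days after a night without food, and counted as diabetic with a non-fasting blood glucose above 16 mM on testing 7 days later. CON dams had the citric acid buffer only. The sources differ on whether the dams were grouped before or after mating. The fetuses were thus exposed through the mother, and the labels give neither their sex nor which dam or how many hearts stand behind a library. Since nothing says that the libraries came from separate litters, the spread between them may be smaller than that between pregnancies.

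In a heart muscle cell each beat begins when the voltage-gated channel of the surface membrane lets a little calcium in, which opens the release channel of the sarcoplasmic reticulum, the internal calcium store. The pump of the reticulum then takes calcium back up, while the sodium-calcium exchanger moves the rest out of the cell. Before birth the reticulum and its junctions with the surface membrane are still immature, and entry across the surface carries a larger part of the calcium signal than in the adult.

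The libraries held 16672876 to 19109844 reads on genes, as recovered from the steps between the deposited values. The values are FPKM, the reads of a gene per kilobase of its length, scaled to the reads of the library, so that levels of different genes can be set side by side. The hearts carried the transcripts that define cardiomyocytes. The 10 cardiomyocyte markers summed to between 29871 and 31297 FPKM in CON and between 23904 and 27316 FPKM in HG. Of the 10, 7 were lower in HG with an adjusted p under 0.05 (limma), against 11.8% of all genes tested, and 0 higher, against 28.4%. All 10 of these markers had an estimate below 0 with limma. In these bulk samples, fewer cardiomyocytes and less of these transcripts per cardiomyocyte cannot be told apart. CON 3 stood apart by liver transcripts, whose 5 markers summed to 75.7 FPKM in that library, at most 7.42 FPKM in the other CON libraries and at most 2.40 FPKM in HG. The lowest CON sum was 3.12 FPKM, so the groups did not overlap in these sums. Of the 5 liver markers, 4 were lower in HG at an adjusted p under 0.05 (limma), against 11.8% of all genes tested. Of the 10 skeletal muscle markers, 4 passed the filter on low values, and the list summed to between 5.37 and 7.78 FPKM in CON and between 6.96 and 11.0 FPKM in HG.

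The deposited annotation attaches shared terms to the genes. Since they were chosen by their place in calcium cycling, these terms describe the choice and add no result to it. The term sarcoplasmic reticulum membrane was attached to 7 of the 10 genes and to 29 genes in all. The control of cardiac contraction through the release of sequestered calcium held 5 of them (Cacna1c, Ryr2, Casq2, Pln and Slc8a1) among 12 genes in all. Regulation of that release by the reticulum held 4 of them, Dhrs7c, Casq2, Trdn and Pln, among 21 genes.

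The levels stood in the same order in both groups. In CON they were highest for Atp2a2 and Pln, followed by Casq2, Jph2, Slc8a1, Ryr2, Cacna1c, Trdn, Dhrs7c and Sln. These means ran from 855 FPKM for Atp2a2, above 99.6% of all genes listed, down to 4.13 FPKM for Sln. Neighbours in the order were separate in every CON library except for Dhrs7c and Sln. In HG the ranges of Pln and Casq2 overlapped, as did those of Dhrs7c and Sln. Each major gene was the dominant form of its family at the transcript level. Atp2a2 made up 99.9% of the summed FPKM of the 3 pumps of its family in every library, and Ryr2 between 96.7% and 98.4% of the 3 ryanodine receptors. Casq2 shared its family most, with between 86.5% and 91.6% of the 2 calsequestrins, and the remainder was Casq1, the form best known from skeletal muscle.

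**Figure D1:**
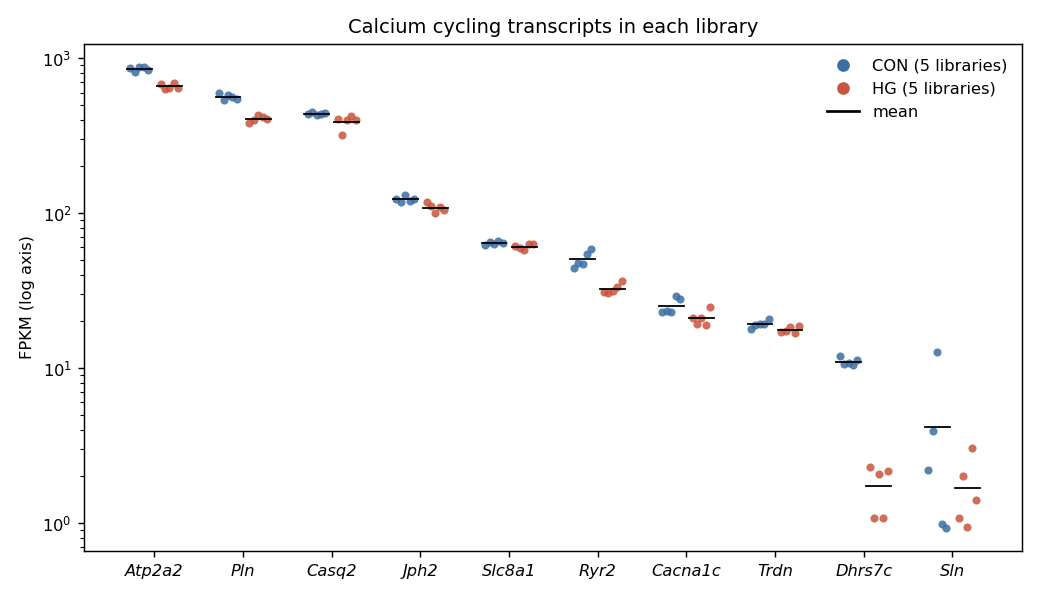
FPKM of the 10 calcium cycling genes (log axis) in each of 5 CON and 5 HG libraries, with 1 point per library and the group mean as a line. Atp2a2, Pln, Casq2, Ryr2 and Dhrs7c have no HG library within the CON range, while 1 CON library sets the mean of Sln.

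Every one of the 10 genes had a lower estimate in HG, from -0.08 to -2.67 on the log2 scale of FPKM + 0.1, with limma and likewise with voom on the recovered reads. With limma, 7 of the 10 were lower in HG at an adjusted p under 0.05, against 11.8% of the 14542 genes tested, and 0 were higher, against 28.4%. The groups did not overlap for 5 of the 10, all lower in HG, against 8.12% of the genes tested lower and 19.3% higher without overlap. Only Dhrs7c was lower by more than 1 on the log2 scale as well, against 1.07% of the genes tested. These shares follow in part from how the genes were chosen. The median difference of the 10 genes was -0.32, while that of all genes tested was 0.09. When each library was divided by its median-of-ratios factor, 9 of the 10 were lower at an adjusted p under 0.05, against 17.5% of genes lower and 15.6% higher with these factors.

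Calcium entry was represented by Cacna1c (NCBI Gene 24239), the pore of the cardiac L-type channel. It stood at 22.9, 23.4, 23.1, 29.0 and 27.9 FPKM in CON 1 to 5, and at 21.0, 19.1, 21.1, 19.1 and 24.6 FPKM in HG 1 to 5. The groups overlapped in HG 5 alone, which was above CON 1, CON 2 and CON 3. The mean went from 25.2 ± 2.93 to 21.0 ± 2.26 FPKM (± SD of 5 libraries per group), a log2 difference of -0.27 with a standard error of 0.0854. It passed the adjusted threshold over all genes, and no longer did so without CON 4, CON 5, HG 2 or HG 4, where the differences were -0.21, -0.23, -0.23 and -0.23.

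Ryr2 (689560), the calcium release channel, was next in the chain. Its values were 43.9, 47.4, 47.0, 54.4 and 58.8 FPKM in CON 1 to 5, and 30.9, 30.4, 31.4, 33.4 and 36.3 FPKM in HG 1 to 5. Every HG library was below every CON library, and CON 4 and CON 5 were the highest, as they were for Cacna1c. HG held 64.6% of the CON mean, a log2 difference of -0.62 with a standard error of 0.0773, and the difference lay between -0.57 and -0.71 in all alternatives. Between 8955 and 17098 reads stood behind each value, since the transcript is long as well as abundant.

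Casq2 (29209) encodes calsequestrin, which holds calcium inside the store. CON 1 to 5 had 434, 447, 427, 435 and 439.9 FPKM, a coefficient of variation of 1.71%, and HG 1 to 5 had 403, 321, 400.5, 426 and 398 FPKM. The ranges were separate by the narrow gap between CON 3 and HG 4, and HG 2 was well below the other HG libraries. The log2 difference was -0.17 with a standard error of 0.0631. It passed the threshold narrowly, and did so in 9 of 22 alternatives. The difference was -0.10 without HG 2, where it passed, and -0.10 after quantile normalization, where it did not. It also missed the threshold without any 1 of the CON libraries (-0.16 to -0.18) and without HG 1, HG 3 or HG 5 (-0.18 each).

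Trdn (59299), triadin, ties calsequestrin to the release channel. It had 18.0, 19.1, 19.3, 19.2 and 20.6 FPKM in CON 1 to 5, and 17.1, 17.3, 18.3, 16.8 and 18.7 FPKM in HG 1 to 5, so that HG 3 and HG 5 lay within the CON range. Its log2 difference of -0.12, with a standard error of 0.0469, did not pass the threshold, though it passed in 7 of 22 alternatives, among them median-of-ratios factors (-0.21) and the fits without CON 1 (-0.15) or HG 5 (-0.14). Jph2 (296345), junctophilin, holds the reticulum at the surface membrane. Its values were 124, 118, 131, 119.7 and 123 FPKM in CON 1 to 5, and 118, 111, 100.2, 109 and 105 FPKM in HG 1 to 5. HG 1 was level with CON 2 and the other HG libraries were lower than all of CON. The log2 difference of Jph2 was -0.18 with a standard error of 0.0457, and it passed in all 22 alternatives with a test.

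Dhrs7c (287411), a short-chain dehydrogenase of the reticulum membrane in muscle, differed by far more than the rest. It was at 12.0, 10.6, 10.7, 10.4 and 11.2 FPKM in CON 1 to 5, and at 2.28, 1.08, 2.07, 1.07 and 2.16 FPKM in HG 1 to 5. The groups were wide apart, and the HG libraries fell into a lower pair, HG 2 and HG 4, and a higher trio. HG held 15.8% of the CON mean, a log2 difference of -2.67 with a standard error of 0.196. Of the 14542 genes tested, 7 had a lower log2 difference. The HG values rest on 20 to 46 reads per library and the CON values on 200 to 230 reads. The difference lay between -2.16, with a pseudocount of 1, and -2.78 in the alternatives.

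Uptake into the store was represented by the pump and its small membrane regulators. Atp2a2 (29693), the pump, had 869.8, 817, 873, 877 and 837 FPKM in CON 1 to 5, and 684, 634, 644, 687 and 644 FPKM in HG 1 to 5. No HG library came near CON, and the spread in each group was small, at 3.09% and 3.79% of the mean. The log2 difference of Atp2a2 was -0.38 with a standard error of 0.0380. Pln (64672) encodes phospholamban, which restrains the pump until it is phosphorylated. It had 598, 534, 576, 565 and 548 FPKM in CON 1 to 5, and 379, 399, 431, 416 and 404 FPKM in HG 1 to 5. These groups were separate too, with a log2 difference of -0.48 and a standard error of 0.0431. Within a library, Pln stood at 0.660 ± 0.0165 of the pump's FPKM in CON (SD over 5 libraries) and at 0.617 ± 0.0420 in HG, and the groups overlapped in this ratio.

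Sln (367086), sarcolipin, is a regulator of the pump that in the rodent heart is known chiefly from the atria. It was at 2.19, 3.90, 12.7, 0.978 and 0.929 FPKM in CON 1 to 5, and at 1.07, 2.01, 0.947, 3.02 and 1.40 FPKM in HG 1 to 5. The groups overlapped almost wholly, and CON 3 alone was far above the rest, with 163 reads against 12 to 52 in the other libraries. The log2 difference was -0.68 with a standard error of 0.595, and it was -0.12 without CON 3. It did not pass the threshold in any of 22 alternatives. The CON mean was 4.13 ± 4.91 FPKM with CON 3 and 2.00 ± 1.40 FPKM without it (SD, n = 5 and n = 4 libraries). CON 3 also had the liver transcripts given above. Its value of the atrial light chain Myl7 was 1066 FPKM, against 603 to 804 FPKM in the other CON libraries. In HG 2, Myl7 stood at 934 FPKM with Sln at 2.01 FPKM. Among CON, the atrial markers Nppa, Kcnj3, Nr2f2 and Tbx5 were also highest in CON 3. Myl4 was highest in CON 2, at 1118 FPKM against 856 FPKM in CON 3. The 6 atrial markers together summed to 4083 FPKM in CON 3, the highest of the CON libraries, which began at 2791 FPKM, and to between 3755 and 5276 FPKM in HG. The part of atrial tissue or of other tissue in the values of Sln was not tested.

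Slc8a1 (29715), the sodium-calcium exchanger that moves calcium out of the cell, had the smallest difference of the 10. It had 62.2, 65.4, 63.1, 66.0 and 63.7 FPKM in CON 1 to 5, and 60.9, 59.2, 57.4, 63.2 and 62.9 FPKM in HG 1 to 5. HG 4 and HG 5 lay within the CON range and the other HG libraries just below it. The log2 difference of -0.08, with a standard error of 0.0360, did not pass the threshold, and it was -0.17 with median-of-ratios factors, where it did.

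**Figure D2:**
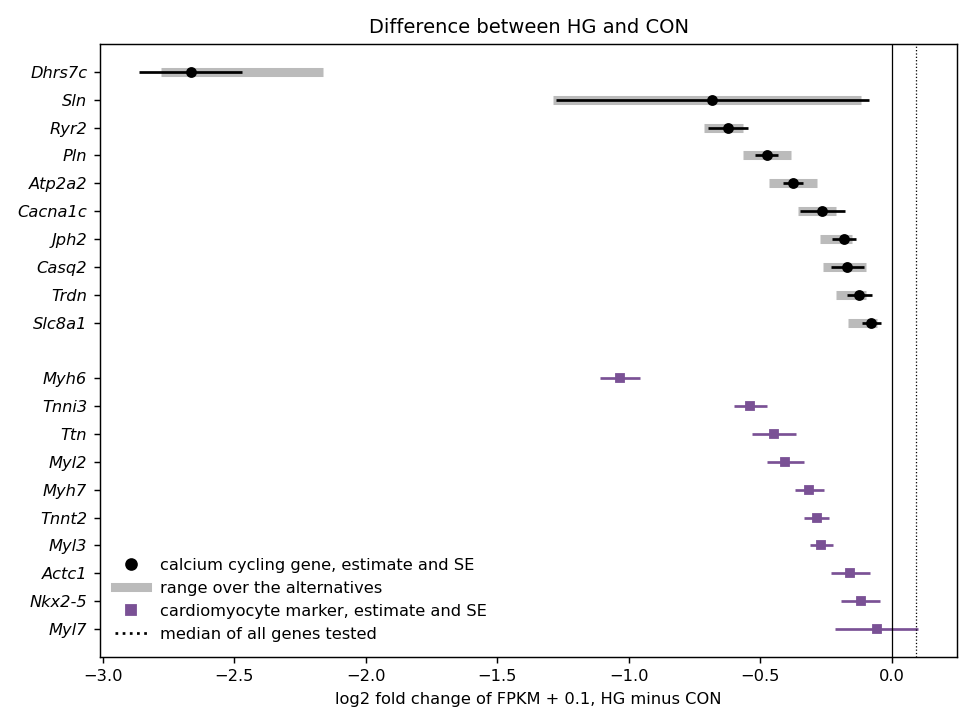
Log2 difference of FPKM + 0.1, HG minus CON, for the 10 calcium cycling genes (black, with standard error, and in grey the range over all alternatives) and for 10 cardiomyocyte markers (purple, with standard error). Dhrs7c stands at -2.67, the other calcium cycling genes lie between -0.08 and -0.68, and the markers span -0.06 to -1.03.

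The unequal size of these differences shows in the ratios of FPKM within a library, in which a factor common to the library cancels. The exchanger relative to the pump (Slc8a1 to Atp2a2) was between 0.0716 and 0.0800 in CON and between 0.0890 and 0.0978 in HG, so that every HG library was higher. The exchanger relative to the release channel was 1.29 ± 0.137 in CON (SD over 5 libraries) and 1.87 ± 0.0947 in HG, again without overlap. Calsequestrin relative to the release channel went from 8.78 ± 1.00 to 12.0 ± 1.15, and junctophilin relative to the same channel from 2.48 ± 0.335 to 3.36 ± 0.369, both without overlap. In these 3 ratios HG had less Ryr2 for each unit of its partner. The same held for Cacna1c relative to Ryr2, at 0.503 in CON and 0.645 in HG without overlap. Only 3.42% of the genes tested had a lower log2 difference than Ryr2, so most partners would give a higher ratio in HG. These ratios thus restate the difference of Ryr2, and the share of all genes without overlap was not counted. Dhrs7c relative to Ryr2, by contrast, was 0.222 in CON and 0.0533 in HG, also without overlap. The ratio of Trdn to Casq2 was 0.0440 ± 0.00213 in CON and 0.0456 ± 0.00536 in HG and overlapped.

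Cardiomyocyte markers were lower in HG as well, so the 10 genes were also set against Tnnt2, cardiac troponin T, in the same library. This gene and Actc1 were chosen after their values were seen. Tnnt2 itself had a log2 difference of -0.29 and Actc1 of -0.16, while the median of all genes tested was 0.09. A gene at that median would thus also stand higher relative to Tnnt2 in HG. How many of all genes were separate in these ratios was not counted. Relative to Tnnt2, Ryr2 was at 78.8% and Dhrs7c at 19.2% of the CON mean in HG, both without overlap between the groups, and Slc8a1 was at 115% of it, higher in every HG library. The other 7 genes overlapped, with Atp2a2 at 94.0%, Pln at 87.7% and Casq2 at 109% of the CON ratio. Relative to Actc1, cardiac actin, which itself overlapped between the groups, only Dhrs7c at 17.9% and Pln at 80.8% were separate, and Ryr2 was at 72.7% with overlap. The part of the cardiomyocyte share in the differences of the 10 genes was not tested.

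The promoter sequences of the genes whose groups did not overlap are shown because these genes were lower together. RefSeq promoters of the assembly GRCr8 were matched by symbol for 8 of the 10 genes, all but Sln and Dhrs7c, and the 250 bases before the annotated start are printed 5′ to 3′ on the strand of the gene. GRCr8 is a later build than the mRatBN7.2 named for the deposited values. Capitals mark matches on either strand to the TATA box TATAAA, the GC box GGGCGG, the muscle CAT motif CATTCC, the GATA motif GATAA, the MEF2 motif or the CArG box. Matches of the GC box may overlap each other.
Ryr2 (GRCr8 chr17:63081277-63081526, plus strand): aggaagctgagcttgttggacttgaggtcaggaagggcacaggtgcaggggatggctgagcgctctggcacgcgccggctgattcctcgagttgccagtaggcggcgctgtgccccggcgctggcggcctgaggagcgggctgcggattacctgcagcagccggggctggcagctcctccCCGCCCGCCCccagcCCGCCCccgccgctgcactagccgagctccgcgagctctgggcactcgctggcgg
Atp2a2 (GRCr8 chr12:39733269-39733518, plus strand): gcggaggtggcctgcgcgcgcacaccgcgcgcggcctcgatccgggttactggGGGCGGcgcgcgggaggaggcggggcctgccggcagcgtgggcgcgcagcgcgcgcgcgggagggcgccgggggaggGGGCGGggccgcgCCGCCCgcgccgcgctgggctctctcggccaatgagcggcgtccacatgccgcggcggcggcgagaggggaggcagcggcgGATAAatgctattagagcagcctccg
Pln (GRCr8 chr20:33172244-33172493, plus strand): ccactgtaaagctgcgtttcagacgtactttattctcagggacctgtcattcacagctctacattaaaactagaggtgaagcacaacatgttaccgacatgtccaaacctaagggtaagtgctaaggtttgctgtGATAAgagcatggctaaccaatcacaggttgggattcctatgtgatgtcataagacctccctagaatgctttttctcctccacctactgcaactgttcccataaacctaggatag
Casq2 (GRCr8 chr2:192214306-192214555, plus strand): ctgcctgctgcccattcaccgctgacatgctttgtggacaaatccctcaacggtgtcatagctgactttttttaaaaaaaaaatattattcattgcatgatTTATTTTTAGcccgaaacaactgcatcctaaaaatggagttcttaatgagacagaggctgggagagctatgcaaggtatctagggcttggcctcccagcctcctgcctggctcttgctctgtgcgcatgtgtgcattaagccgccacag

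These windows had little in common. Those of Atp2a2 and Ryr2 were rich in G and C, at 80.0% and 72.0% against a median of 51.6% over 33360 distinct promoter windows, and each held 3 GC boxes, a motif found in 30.5% of all windows. Those of Pln and Casq2 had 44.0% and 46.4% and no GC box. GATAA occurred in the windows of Atp2a2 and Pln, and in 23.5% of all windows. The match in Atp2a2 began 26 bases before the start. The MEF2 motif, named for a family of muscle transcription factors, occurred in Casq2 alone among the 8 windows and in 2.97% of all windows. Neither TATAAA (12.9% of all windows) nor the CArG box (1.50%) was found in any of the 8, and CATTCC (12.1%) was found in Cacna1c only. These are matches of letters and not measured binding sites.

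Within the groups the genes did not vary as a block. Over the 10 libraries, the deviations from the group means on the log2 scale correlated between -0.68 and 0.82 in the 45 pairs of genes, with a median of 0.01 and 23 of the pairs above 0. The points share library and depth, and the values are a description. The closest pair was Cacna1c with Ryr2, and Trdn went with both, at 0.71 each. Of the genes compared, 97.0% correlated less with Cacna1c than Ryr2 did. The pump and phospholamban, which act together in the membrane, correlated at 0.19. Jph2 with Atp2a2 was at 0.54, while Sln and Cacna1c were at -0.68, the lowest of all.

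**Figure D3:**
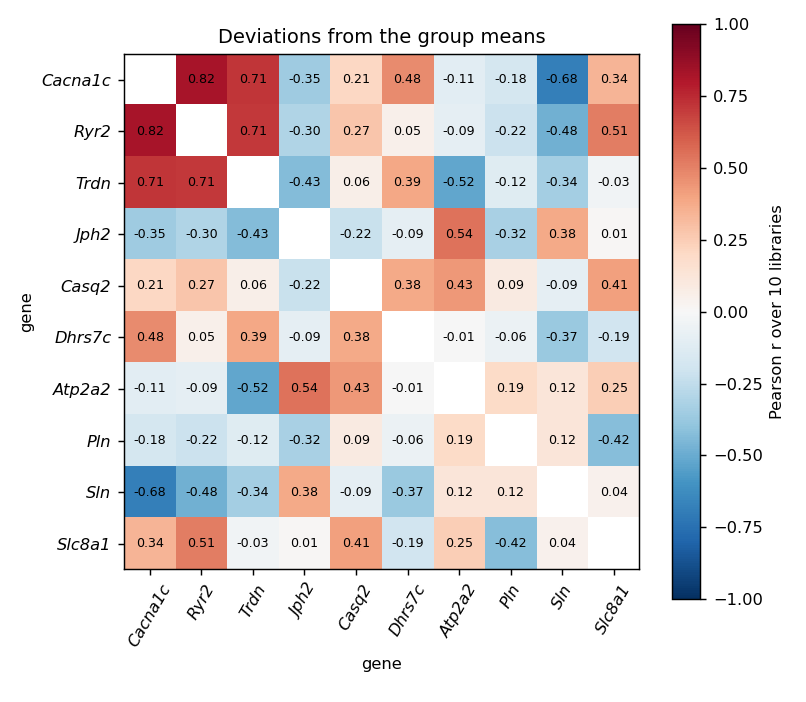
Pearson r between pairs of calcium cycling genes, over 10 libraries, of the deviations of log2(FPKM + 0.1) from the group means, as a colour scale from -1 to 1 with the value in each cell. Cacna1c, Ryr2 and Trdn form a group with r of 0.71 to 0.82, and the other pairs spread over both signs down to -0.68.

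The nearest genes by the same measure were looked for among the 8457 genes whose mean reached 5 FPKM, as the 2 with the highest r for each of the 10. The highest r of so many genes over 10 libraries can be large without a relation, so these values are a description. Cacna1c lay nearest to Dmd, the dystrophin gene (r = 0.97), and Plcg1, and Ryr2 to Naca (r = 0.94) and Psat1. Trdn lay nearest to Mapk1ip1 and Birc6, Jph2 to Psmb3 and Flnc, and Casq2 to Idi1 (r = 0.99) and Ptrh2. For Casq2, HG 2 stood at 321 FPKM and the next HG library at 398 FPKM, and the weight of HG 2 in its r was not tested. Dhrs7c lay nearest to Stc1, stanniocalcin 1 (r = 0.96), and Mphosph10. Atp2a2 lay nearest to Tomm34 and Eif3d, Pln to Rfxank and Cr1l, Slc8a1 to Dynll2 and Asb3, and Sln to Ubl7 (r = 0.88) and Atxn10. None of the 10 was among the 2 nearest genes of another, though Sln, with a mean of 2.91 FPKM, was too low to be considered.

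Around these 10 genes, a list of 73 others that handle calcium was set by role, of which 72 were listed and 65 passed the filter on low values. Of the 65, 19 were lower and 15 higher in HG at an adjusted p under 0.05 (limma) (29.2% and 23.1% of the 65), against the 11.8% and 28.4% of all genes tested that are given above. Their median log2 difference was 0.08, near that of all genes tested. With median-of-ratios factors the split was 20 lower and 5 higher, against 17.5% of all genes lower and 15.6% higher with these factors. After quantile normalization it was 19 lower and 9 higher, so that the count of higher genes depends on the scaling.

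Among the other genes of calcium entry, 5 of 11 tested were higher in HG at an adjusted p under 0.05 (limma), against 28.4% of all genes. With median-of-ratios factors or quantile normalization 2 of the 11 were, Rem2 and Cacnb3. The share of all genes higher with median-of-ratios factors was 15.6%. The largest was Rem2, a small GTPase that inhibits L-type channels, from 0.166 ± 0.114 to 0.396 ± 0.112 FPKM (± SD of 5 libraries per group, log2 difference 1.02, adjusted p = 0.0298). Cacna1d, another L-type pore, followed at 0.48 (adjusted p = 0.0460), also at a level under 1 FPKM. Rem2 was listed at 0 in at least 1 CON library. The channel subunit Cacnb3 went from 3.26 ± 0.102 to 4.01 ± 0.203 FPKM (log2 difference 0.29, adjusted p = 0.00267). The median of the role was 0.29, and 0.20 with median-of-ratios factors.

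Among release channels, store and junction, 7 of 19 tested genes fell, against 11.8% of all genes, and 4 were higher, against 28.4%. With median-of-ratios factors 7 were lower and 0 higher, against 17.5% of all genes lower and 15.6% higher with these factors. At an unadjusted p under 0.05 (limma) 1 was higher with these factors. Tmem38a, a potassium channel of the reticulum that balances charge during release, fell from 99.4 ± 1.19 to 70.1 ± 6.84 FPKM (± SD of 5 libraries per group, log2 difference -0.51, adjusted p = 4.26e-05, limma), whereas its relative Tmem38b had a difference of 0.20 (adjusted p = 0.0258). Cmya5, which encodes myospryn, fell most, with -0.67 (adjusted p = 0.000654). Among the inositol trisphosphate receptors, Itpr3 fell by 0.43 on the log2 scale (adjusted p = 0.00396) and Itpr1 was higher with 0.18 (adjusted p = 0.0214). Fkbp1b, which binds the release channel, was higher with 0.41 (adjusted p = 0.0212) at about 1 FPKM. Hrc, a calcium-binding protein of the lumen singled out after its values were seen, fell from 48.9 ± 2.65 to 36.8 ± 1.77 FPKM (log2 difference -0.41, adjusted p = 4.51e-05).

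For uptake, 2 of 5 tested genes fell and 1 rose, against 11.8% of all genes tested lower and 28.4% higher. With median-of-ratios factors 2 were lower and 0 higher, against 17.5% and 15.6% of all genes with these factors. Atp2a3, a pump of non-muscle cells, fell from 0.819 ± 0.190 to 0.208 ± 0.0577 FPKM (± SD of 5 libraries per group, log2 difference -1.58, adjusted p = 4.81e-05, limma), a low level beside the 855 FPKM of Atp2a2. Ppp1r3a, which targets a phosphatase to the reticulum and to glycogen, had -0.47 (adjusted p = 0.00108), and Hax1, a partner of phospholamban, had 0.18 (adjusted p = 0.00682). For extrusion, 1 of 5 fell, against 11.8% of all genes tested, and 1 rose, against 28.4%. These were Atp2b2 at -0.60 (adjusted p = 0.0418) and the surface pump Atp2b4 at 0.42 (adjusted p = 0.00144). Of the 5 genes of store-operated entry, 1 was lower and 0 higher, against 11.8% and 28.4% of all genes tested, and 4 did not pass. The lower gene was Stim1, the calcium sensor of the reticulum, from 8.95 ± 0.797 to 7.31 ± 0.701 FPKM (log2 difference -0.29, adjusted p = 0.0104).

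Mitochondrial calcium transport had 2 genes lower among 9, against 11.8% of all genes tested. Smdt1, a subunit of the mitochondrial uniporter, fell from 104 ± 3.75 to 87.2 ± 0.650 FPKM (± SD of 5 libraries per group, log2 difference -0.25, adjusted p = 8.45e-05, limma), and Letm1 had -0.27 (adjusted p = 0.00452). Of the calcium-binding proteins of the reticulum lumen, 6 of 11 were lower, against 11.8% of all genes tested. Another 3 were higher (27.3% of the 11), near the 28.4% of all genes tested. Hspa5, the chaperone BiP, fell from 519 ± 46.5 to 287 ± 31.5 FPKM (log2 difference -0.86, adjusted p = 9.76e-06). Calr, calreticulin, fell from 551 ± 28.0 to 400.3 ± 21.0 FPKM (log2 difference -0.46, adjusted p = 1.98e-05), and Hsp90b1 had the same difference of -0.46 (adjusted p = 0.000125). Rcn2, Calu and Rcn1, which belong to a family of EF-hand proteins of the secretory pathway, were higher with 0.29, 0.22 and 0.17 (adjusted p = 0.000123, 0.000352 and 0.00404).

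Of the 24 genes that the naming rule chose in these roles, 9 lost the threshold in at least 1 alternative and none changed sign. With median-of-ratios factors those that lost it included Cacna1d, Fkbp1b, Itpr1, Tmem38b, Hax1 and Rcn1, and in other alternatives by Rem2 and Atp2b2 as well.

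**Figure D4:**
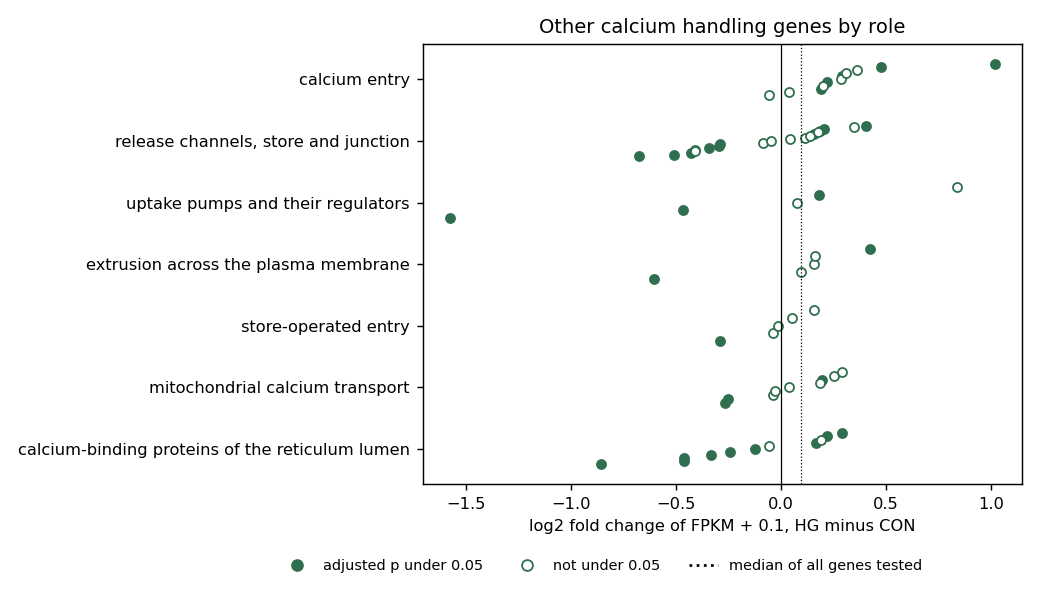
Log2 difference of FPKM + 0.1, HG minus CON, for 65 other calcium handling genes in 7 roles, with filled points for an adjusted p under 0.05 (limma), open points for the rest and a dotted line at the median of all genes tested, 0.09. Of 11 genes of calcium entry, 5 have filled points, all above 0, against 28.4% of all genes higher. With median-of-ratios factors 2 of them pass, against 15.6% of all genes higher with these factors. The reticulum lumen has 6 filled points below 0, against 11.8% of all genes lower, and 3 above, against 28.4% higher.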

How the data were processed

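Stranded mRNA libraries of 10 samples of fetal heart were sequenced, and the authors deposited 1 table of FPKM with GO terms and KEGG pathways (0 columns of samples unused). The submitters' processing notes name fastp, HISAT2, HTSeq, R 3.2.0 and the build mRatBN7.2, without saying which step used which. The study's methods speak of pooled RNA, and a figure legend of isolated cardiomyocytes, whereas the labels say heart tissue and the values differ between libraries. Reads were recovered as the smallest whole numbers that give the FPKM of a gene in all libraries, to within 0.02 reads, for 100% of the genes. They count for precision only. Genes whose mean over all libraries reached 0.1 FPKM, 14542 in number, entered a model of log2(FPKM + 0.1) in limma 3.58.1 in R 4.3.3 (trend, no covariate), with Benjamini-Hochberg adjustment over all of them. Fold changes on this scale understate those of low genes. The model was tested on simulated data. Tables and plots were made with Python 3.11.15, pandas 2.3.3, numpy 2.4.6 and matplotlib 3.10.9.

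Members and lists were chosen with earlier results of these data known. Named beside the 10 genes were, per role and direction, up to 3 other genes with the largest difference under the threshold, and the 2 nearest genes of each member. A gene so chosen is not reported here. Marker lists covered cardiomyocytes, both chambers, conduction, skeletal and smooth muscle, fibroblasts, endothelium, epicardium, macrophages, neurons with glia, liver and red cell precursors. As alternatives, the pseudocount was set to 1 or 0.01, the filter was dropped or raised to 1 FPKM, and libraries were scaled by median-of-ratios factors or by quantile normalization. Further fits dropped 12 hemoglobin genes, used no trend, weighted the arrays, blocked on the replicate number, took the mean of 4 Y chromosome genes for a covariate, ran voom on recovered reads, took the ratio of mean FPKM, or left out each library in turn.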

Additional observations from a re-analysis of the deposited data

Results flagged for a closer look

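Among 68 sets of 5 libraries (each gene, ratio and summed marker list in each group), 6 held a library whose distance to the next was large for the range of its set, and chance gives about 1 in 20 sets. For Casq2, HG 2 was lowest at 321 FPKM, and the next value was 398 FPKM. The same library was lowest in the ratio of Casq2 to Atp2a2, at 0.507. For Sln, CON 3 was highest at 12.7 FPKM, with 3.90 FPKM next, and it was highest in the ratio of Sln to Atp2a2, at 0.0145. CON 3 was also highest in the summed liver markers, at 75.7 FPKM. In the ratio of Dhrs7c to Trdn, CON 1 was highest at 0.669, with 0.556 next, and the HG libraries lay between 0.0627 and 0.133.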

How the results depend on the processing

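Between 5 and 9 of the 10 calcium cycling genes were lower under the threshold over all alternatives (5 to 7 with 1 library left out, 5 without CON 4 or CON 5), and 0 were higher in each. Ryr2, Jph2, Dhrs7c, Atp2a2 and Pln passed in all 22 alternatives with a test, and Sln in none of them. No sign changed among the 10 genes. Of the 65 other calcium handling genes, 15 were higher. Quantile normalization gave 9 higher and median-of-ratios factors 5, and leaving out 1 library gave 10 to 14. Array weights and voom on recovered reads each gave 17 higher, the most of any alternative. Between 17 and 20 were lower in each alternative. The replicate numbers did not pair the libraries, since same-numbered CON and HG libraries correlated between -0.126 and 0.108 and none was closest to its own number. With the replicate block, 6 of the 10 genes and 18 other genes were lower and 14 other genes higher. Sln rests on 12 to 163 reads and Dhrs7c in HG on 20 to 46, which limits the precision of both.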

Other observations

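The other marker lists gave values that belong in none of the comparisons above. Their counts stand beside 11.8% of all genes tested lower in HG and 28.4% higher at an adjusted p under 0.05 (limma). Summed smooth muscle markers ran from 666 to 795 FPKM in CON and from 905 to 1135 FPKM in HG, with 3 of 5 genes higher at an adjusted p under 0.05 (limma). Epicardial markers summed to between 23.8 and 27.2 FPKM in CON and between 31.0 and 36.6 FPKM in HG, with 2 of 4 higher. Red cell precursor markers summed to between 58.5 and 107 FPKM in CON and between 39.5 and 56.3 FPKM in HG, with 3 of 5 lower. Ventricular markers summed to between 12835 and 13587 FPKM in CON and between 9860.4 and 11420 FPKM in HG, with 3 of 5 lower and 1 higher. Endothelial (214 to 234 FPKM in CON, 216 to 236 in HG), macrophage (27.6 to 34.5 and 32.1 to 42.3), fibroblast (1655 to 1920.1 and 1495 to 1711), conduction system (29.2 to 35.1 and 33.6 to 38.7) and neuron and glia lists (3.84 to 4.54 and 3.26 to 5.43) overlapped between the groups. In these lists 3 of 6 fibroblast markers were lower and 1 higher, and 2 of 5 macrophage, 1 of 5 endothelial and 1 of 4 conduction markers were higher at an adjusted p under 0.05. Of the atrial markers 3 of 6 were higher and 0 lower, and of the skeletal muscle markers 2 of 4 tested were higher and 0 lower. The sums of both lists, given above, overlapped between the groups. The share of atrial and ventricular tissue in the libraries was not tested.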
